A study of Mus musculus with 28 samples.

Results

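The genes described here are the metallothioneins Mt1, Mt2 and Mt3, the copper handling genes Slc31a1, Atp7a, Atox1, Ccs, Sod1 and Cox17, and Mtf1, which encodes a metal-responsive transcription factor. They were chosen by name, because cuprizone, the agent used in the study, binds copper. All 10 symbols matched a gene among the 55414 listed, and all 10 passed the filter on low counts that left 12424 genes for testing. The study measured whole-brain RNA of mice by QuantSeq, which sequences a tag at the 3′ end of each mRNA; long and short transcripts yield equal tags, so levels are compared between genes with no length correction.

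There were 28 libraries, 7 in each of 4 groups. Naive mice (coded CPZ0), mice at peak demyelination (CPZ5) and mice in remyelination (CPZ6+1, called control remyelination here) carried the floxed receptor gene TNFR1ff and had been backcrossed onto C57BL/6. The knockout mice, labelled mgTNFR1KO, were Cx3cr1-CreER.Tnfr1ff animals in remyelination (CPZ6+1), in which tamoxifen had been given to delete TNFR1. That Cre is driven from the Cx3cr1 locus, which microglia use and which macrophages at the borders of the brain use too. Neither the unit of the stage codes, nor the age and sex of the mice, nor whether the floxed controls received tamoxifen is stated in the labels. The labels speak of samples and not of separate animals, so p-values measure the spread between these samples.

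Library totals lay between 1522928 and 3137262 counts, and a floor of 3 counts equals 0.956 to 1.97 CPM (counts scaled to library size) depending on the library. All CPM values below were scaled with TMM factors, and group values are means ± SD over 7 libraries. Markers of whole brain were measured throughout, with 8 of 8 neuronal, 12 of 12 astrocyte and 10 of 10 mature oligodendrocyte markers past the filter. Libraries knockout 1 and naive 1 stood apart in the share of counts taken by the most abundant gene, which was 1.33 and 25.5%. The targeted gene, Tnfrsf1a, ranged from 16.5 to 30.4 CPM in knockout and from 15.6 to 28.8 CPM in control remyelination brains (log2 fold change −0.05, adjusted p = 0.961). Other cells of the brain also express it, and a 3′ tag outside the deleted part would check nothing about the deletion. Genes were tested with edgeR's quasi-likelihood test, their p-values were adjusted over the 12424 genes by Benjamini-Hochberg, and a gene is called below 0.05.

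Metallothioneins are small, cysteine-rich proteins that bind zinc and copper. Mt1 and Mt2 are made in most tissues, in brain mainly by astrocytes, and are induced by metals, glucocorticoids and inflammatory signals, while Mt3 is largely a brain form. MTF1 senses zinc and binds metal response elements in the promoters of Mt1 and Mt2. Copper enters cells through the transporter encoded by Slc31a1. It is then carried by dedicated chaperones: the Atox1 protein hands it to the pump ATP7A, the Ccs protein to superoxide dismutase 1, and the Cox17 protein to the mitochondrial machinery that builds cytochrome c oxidase.

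Windows at the RefSeq starts of the metallothioneins are shown because the results turn mainly on these genes. Sequences are from RefSeq on GRCm38.p6, 250 bases before to 50 after the start of each gene, on the plus strand of chromosome 8, and capitals mark the core of the metal response element, searched as TGCACNC and TGCGCNC on both strands. The windows are chr8:94178839-94179138 for Mt1, chr8:94172368-94172667 for Mt2 and chr8:94152357-94152656 for Mt3.
Mt1: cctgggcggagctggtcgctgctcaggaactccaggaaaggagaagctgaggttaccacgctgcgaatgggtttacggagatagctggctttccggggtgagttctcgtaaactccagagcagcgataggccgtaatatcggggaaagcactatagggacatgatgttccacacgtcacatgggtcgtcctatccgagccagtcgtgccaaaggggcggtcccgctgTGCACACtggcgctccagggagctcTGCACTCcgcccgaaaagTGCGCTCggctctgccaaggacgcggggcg
Mt2: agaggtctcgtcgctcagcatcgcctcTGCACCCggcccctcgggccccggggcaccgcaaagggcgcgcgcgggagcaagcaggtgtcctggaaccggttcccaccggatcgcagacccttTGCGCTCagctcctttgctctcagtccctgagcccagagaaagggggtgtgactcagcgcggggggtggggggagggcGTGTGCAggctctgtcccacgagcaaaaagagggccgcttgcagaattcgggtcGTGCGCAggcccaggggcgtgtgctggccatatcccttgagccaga
Mt3: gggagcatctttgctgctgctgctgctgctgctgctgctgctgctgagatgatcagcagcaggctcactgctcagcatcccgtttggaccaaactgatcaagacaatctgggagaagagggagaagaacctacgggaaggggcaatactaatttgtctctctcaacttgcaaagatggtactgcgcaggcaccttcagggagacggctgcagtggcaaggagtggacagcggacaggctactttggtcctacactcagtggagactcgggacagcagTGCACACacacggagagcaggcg

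Mt2 had 4 matches in this window, Mt1 had 3 and Mt3 had 1. Of 32544 promoter windows of the same length, 25.9% held at least 1 match, 1.99% held at least 3 and 0.522% held at least 4. Among the other members with a RefSeq window, Atp7a had 2 matches, a number reached by 7.17% of windows, and Slc31a1, Atox1, Sod1 and Mtf1 had 0. Ccs and Cox17 were not among the windows matched by symbol. A match is a run of letters, and binding was not measured here. The windows were set by the RefSeq starts, and where transcription starts in these brains was not measured. Matches outside the windows were not counted, so these counts need not be those of a whole promoter and do not rank the genes.

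Over all 28 libraries the members spanned a wide range of levels. Mt1 averaged 577 CPM and Mt2 478 CPM, which placed them above 98.9 and 98.4% of the genes tested. Sod1 followed with 285 CPM and Cox17 with 120.5 CPM. Mt3, Mtf1 and Atox1 averaged 56.01, 36.4 and 33.8 CPM. The lowest were the pump gene Atp7a at 16.2 CPM, the importer gene Slc31a1 at 11.8 CPM and the chaperone gene Ccs at 9.73 CPM. Mt2, Slc31a1 and Sod1 overlap a gene on the opposite strand, Cox17 one on its own strand, and Mtf1 a gene on each strand. Since it is not stated whether counting used strand, reads from such partners cannot be told apart. Estimated counts were whole in all 28 libraries for each of these genes but Mtf1, where they were whole in 0.

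At peak demyelination Mt2 and Mt1 were higher than in naive brain, and these were the only members called: 2 of 10, both higher, against a background of 2.0% of all genes called in either direction and 1.30% called higher. The median log2 fold change of the 10 members was 0.31, and that of all genes tested was −0.01. In bulk tissue, more RNA per cell and more cells of a type cannot be told apart, here and in every comparison below.

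Mt2 (ENSMUSG00000031762.8) ranged from 466 to 798 CPM in demyelination brains (median 657), against 268 to 395 CPM in naive brains (median 292). Every demyelination library lay above every naive library, a separation seen in 0.910% of all genes in this direction. Mt2 averaged 631 ± 134 CPM in demyelination and 307 ± 46.4 CPM in naive brains. This 2.05-fold rise is 1.04 on the log2 scale (SE 0.119, adjusted p = 3.38e-08). Mt1 (ENSMUSG00000031765.9) ranged from 474 to 836 CPM in demyelination brains (median 683), against 393 to 501 CPM in naive brains (median 420). Here 5 of 7 demyelination libraries lay above all naive ones. The 1.49-fold rise of Mt1 is 0.57 on the log2 scale (SE 0.113, adjusted p = 0.00118).

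**Figure D1:**
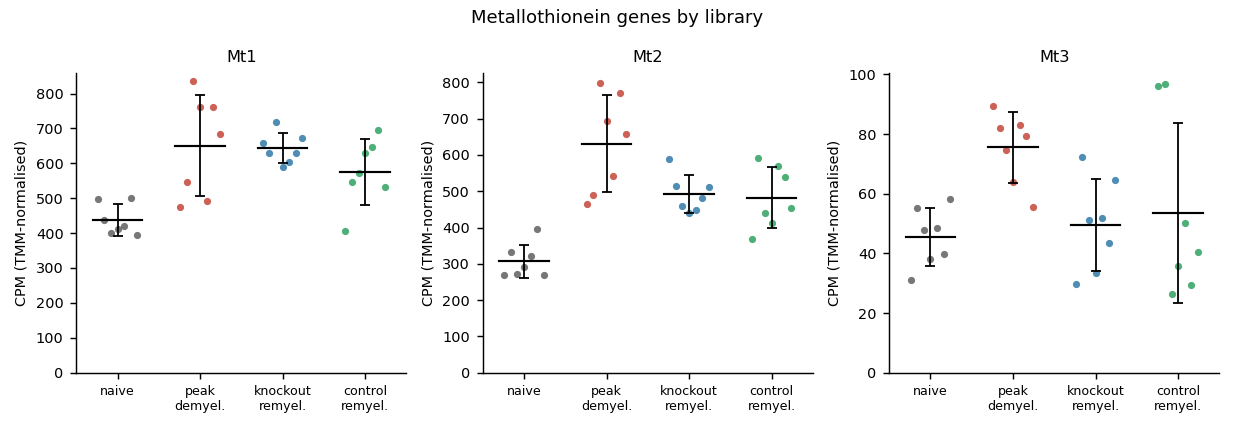
Level of Mt1, Mt2 and Mt3 in each library (points, TMM-normalised CPM on a linear axis from 0) in naive, peak demyelination, knockout remyelination and control remyelination brains, with 7 libraries per group; the long bar is the mean and the whiskers 1 SD. Mt2 in demyelination brains lies above all naive brains, and Mt3 in control remyelination brains spans 26.4 to 96.7 CPM.

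The spread of Mt1 and Mt2 within the demyelination group was shared. Demyelination libraries 1, 2 and 5 had 474, 546 and 493 CPM of Mt1, and the other 4 had between 683 and 836. In the same 3 libraries Mt2 stood at 466, 489 and 541 CPM, and in the other 4 between 657 and 798. These 3 libraries also had the highest share of mitochondrially encoded transcripts in the group, at 14.1, 13.2 and 14.1%, with 9.90 to 10.9% in the other 4. With that share as a covariate the log2 fold changes against naive brain were 1.00 for Mt2 (adjusted p = 1.36e-08) and 0.52 for Mt1 (adjusted p = 0.000307).

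Mt2 rose by more than Mt1, and the proportion between them changed. Naive brains had less Mt2 than Mt1 in every library. The ratio of Mt2 to Mt1 counts within a library ranged from 0.895 to 1.10 in demyelination brains (median 0.962), against 0.538 to 0.789 in naive brains (median 0.710). All 7 demyelination libraries had a higher ratio than any naive library. The mean log2 ratio was −0.04 ± 0.0984 in demyelination and −0.52 ± 0.185 in naive brains, a difference of 0.48. By an exact two-sided permutation test of 7 against 7 libraries p = 0.000583, the smallest that this design allows, and 0.00583 after adjustment over the 10 ratio tests made. This ratio does not depend on how libraries are scaled.

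**Figure D2:**
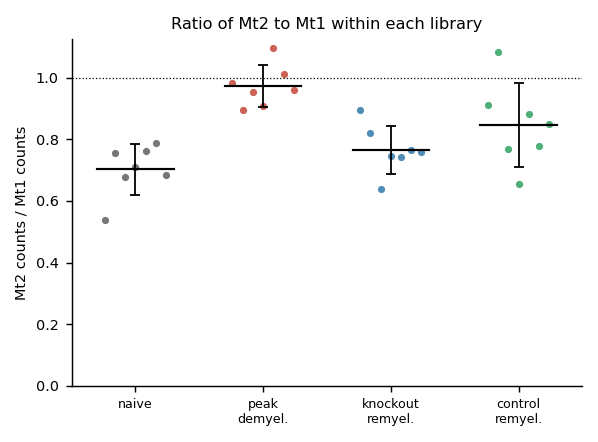
Ratio of Mt2 counts to Mt1 counts within each library (points) in the 4 groups, with the group mean (long bar) and 1 SD (whiskers); the dotted line marks equal counts. Ratios in demyelination brains run from 0.895 to 1.10 and lie above all naive brains, which run from 0.538 to 0.789.

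In control remyelination brains the ratio ranged from 0.654 to 1.08 (median 0.851), reaching into the ranges of both other stages. It was 0.26 higher than in naive brains on the log2 scale (exact permutation p = 0.0332, adjusted 0.134, with 4 of 7 libraries above all naive ones). It was lower than in demyelination brains by a log2 difference of −0.21 (exact permutation p = 0.0402, adjusted 0.134). Neither passed after adjustment, although each would with a library left out: adjusted p = 0.0233 without remyelination 4 in the first and 0.0175 without remyelination 2 in the second. Knockout brains had ratios from 0.639 to 0.895 (median 0.759), a log2 difference of −0.13 from control remyelination brains (exact permutation p = 0.221, adjusted 0.350) and of 0.13 from naive brains (exact permutation p = 0.184, adjusted 0.350).

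Mt3 (ENSMUSG00000031760.10), the brain form, was tested alongside and did not pass. In demyelination brains it ranged from 55.7 to 89.4 CPM (median 79.3), against 31.0 to 58.1 CPM in naive brains (median 48.0). Of the demyelination libraries, 6 of 7 lay above all naive ones. Its log2 fold change was 0.72 (SE 0.220, 95% confidence interval 0.27 to 1.16, adjusted p = 0.0811), a larger estimate than that of Mt1 with a wider error. It passed in a fit of these 2 groups alone (adjusted p = 0.00176) and with no filter on low counts (adjusted p = 0.00334). It did not pass with any library of these 2 groups left out (adjusted p = 0.0638 to 0.174). Nor did it with the mitochondrial share in the fit (adjusted p = 0.0624). The ratio of Mt3 to Mt1 was 0.20 higher on the log2 scale (exact permutation p = 0.445, adjusted 0.504).

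Control remyelination brains were uneven for Mt3. Libraries 1 and 2 held 96.1 and 96.7 CPM, above every other library of the series, and the other 5 held between 26.4 and 50.2 CPM. Their mean was 53.5 ± 30.3 CPM, against 45.5 ± 9.74 CPM in naive brains, with a log2 fold change of 0.25 (SE 0.222, adjusted p = 0.736). Knockout brains ranged from 29.6 to 72.3 CPM and overlapped control remyelination brains entirely (log2 fold change −0.13, adjusted p = 0.927). The Mt3 to Mt1 ratio passed in none of the 5 comparisons by the exact permutation test, where 0 of 5 also had an unadjusted p under 0.05; the smallest adjusted value was 0.181, for knockout against naive brains (log2 difference −0.47).

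In control remyelination brains Mt2 was still above naive brain. It ranged from 370 to 592 CPM (median 453) in control remyelination brains, against 268 to 395 CPM in naive brains, with 6 of 7 libraries above all naive ones. This 1.57-fold rise is 0.65 on the log2 scale (SE 0.119, adjusted p = 0.000921). It was the only member called of 10, where 0.628% of all genes were called in either direction and 0.451% higher. Mt1 ranged from 406 to 694 CPM in control remyelination brains (median 573), and 6 of 7 libraries lay above all naive ones. Its log2 fold change was 0.40 (SE 0.113, adjusted p = 0.0985), which passed without remyelination 1 (adjusted p = 0.0217), the library at 406 CPM, with DESeq2 (0.0375) and once the mitochondrial share entered the fit (0.0258). The median over the 10 members was 0.28, and over all genes tested 0.00.

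Set against demyelination brains, no member was called in control remyelination brains by edgeR, where 2 of 10 had an unadjusted p under 0.05, DESeq2 called 0 and 0.386% of all genes were called. Those 2 were Mt2 and Mt3. Mt2 averaged 482 ± 85.0 CPM in control remyelination and 631 ± 134 CPM in demyelination brains, a log2 fold change of −0.39 (95% confidence interval −0.62 to −0.15, adjusted p = 0.233), with 4 of 7 libraries below all demyelination ones. For Mt3, 5 of 7 control remyelination libraries lay below all demyelination ones (−0.47 on the log2 scale, adjusted p = 0.706). Mt1 averaged 575 ± 94.5 CPM in control remyelination and 651 ± 146 CPM in demyelination brains (log2 fold change −0.18, interval −0.41 to 0.05, adjusted p = 0.871).

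In remyelination no member differed detectably between knockout and control brains. Against control remyelination brains 0 of 10 members were called by edgeR or DESeq2 and 1 of 10 had an unadjusted p under 0.05, where 0.0483% of all genes were called. Mt2 ranged from 441 to 590 CPM in knockout brains (median 482), against 370 to 592 CPM in control remyelination brains. Their difference was 0.03 on the log2 scale with an interval of −0.21 to 0.27, so a change of the size seen at demyelination lies outside it. Mt1 ranged from 590.5 to 719 CPM in knockout brains (median 630.3), with the narrowest spread of the 4 groups, an SD of 6.83% of the mean, against 16.4% in control remyelination brains. Its log2 fold change was 0.16 (interval −0.06 to 0.39, adjusted p = 0.759).

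The member with an unadjusted p under 0.05 was Atp7a, the copper-exporting pump. Atp7a had 7.25 to 21.1 CPM in knockout brains (median 12.6), against 12.4 to 24.2 CPM in control remyelination brains (median 21.1). Of the knockout libraries, 3 lay below all controls and the ranges otherwise overlapped. On the log2 scale the difference was −0.52 (SE 0.223, interval −0.97 to −0.07, unadjusted p = 0.0237, adjusted p = 0.622), on 199 counts in the knockout and 305 in the control group. Against naive brains, which averaged 14.8 ± 5.09 CPM, Atp7a averaged 13.5 ± 5.21 CPM in knockout brains (log2 fold change −0.14, adjusted p = 0.785). Control remyelination brains had the highest mean of the 4 groups, 19.6 ± 4.45 CPM (log2 fold change 0.38 against naive brains, adjusted p = 0.574).

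**Figure D3:**
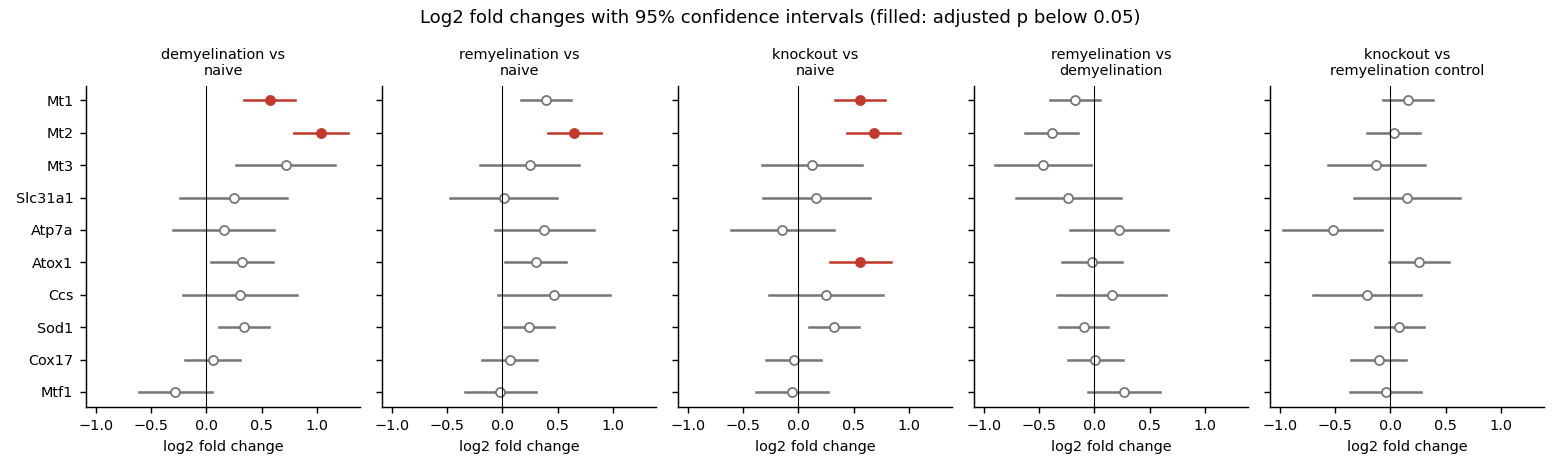
Log2 fold change (points) with its 95% confidence interval (lines) for the 10 genes in 5 comparisons, the first group named being the numerator; filled red points have an adjusted p below 0.05. Mt2 and Mt1 are filled against naive brain at demyelination and in knockout brains, Mt2 alone in control remyelination brains, Atox1 in knockout brains, and no gene in the last 2 panels.

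Knockout brains were also set against naive brains, from which they differ in both genotype and stage, so these cannot be told apart. Of 10 members 3 were called, all higher, where 3.24% of all genes were called in either direction and 1.54% higher. Mt2 averaged 492 ± 51.8 CPM in knockout and 307 ± 46.4 CPM in naive brains (log2 fold change 0.68, SE 0.119, adjusted p = 0.000475). Mt1 averaged 644 ± 44.0 CPM in knockout and 437 ± 44.7 CPM in naive brains (log2 fold change 0.56, SE 0.113, adjusted p = 0.00362). For both genes the groups did not overlap, as for 0.563% of all genes in this direction. This comparison shares its naive libraries with the comparisons above and is no second sign of the same rise.

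The third was Atox1 (ENSMUSG00000018585.10), the chaperone that feeds ATP7A. It ranged from 32.6 to 46.9 CPM in knockout brains (median 41.1), against 18.3 to 32.9 CPM in naive brains (median 26.8), with 6 of 7 knockout libraries above all naive ones. Atox1 was thus 0.56 higher on the log2 scale (SE 0.137, adjusted p = 0.0162). Atox1 averaged 34.3 ± 3.61 CPM in demyelination brains and 33.5 ± 6.77 CPM in control remyelination brains, with log2 fold changes against naive brain of 0.32 (adjusted p = 0.281) and 0.30 (adjusted p = 0.406). Directly against control remyelination brains the knockout difference was 0.26 (interval −0.01 to 0.53, adjusted p = 0.676), so it is not shown to belong to the deletion. Of the haemoglobin genes, the red cell markers that passed the filter, 4 of 4 (Hba-a1, Hba-a2, Hbb-bs and Hbb-bt) were called higher in knockout than in naive brains. In control remyelination brains, where Atox1 was not called, 1 of these 4 was called higher than in naive brains. There, 4 of 4 had an unadjusted edgeR p under 0.05. Their summed level was 514 to 1143 CPM in knockout and 367 to 723 CPM in control remyelination, against 251.2 to 504 CPM in naive libraries. At demyelination their sum was 314 to 407 CPM. There, edgeR and DESeq2 called 0 of these 4 against naive brain, and 0 had an unadjusted edgeR p under 0.05. Their part in the Atox1 result was not tested.

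Sod1 (ENSMUSG00000022982.11), the copper and zinc superoxide dismutase, was called in no comparison. It ranged from 248 to 375 CPM in demyelination brains (median 307), against 170 to 307 CPM in naive brains (median 250.4). The groups overlapped, with 3 of 7 demyelination libraries above all naive ones. Its log2 fold change was 0.34 (SE 0.112, interval 0.11 to 0.57, unadjusted p = 0.00410, adjusted p = 0.117). In control remyelination brains it was 0.24 (adjusted p = 0.415). In knockout brains, at 304 ± 50.3 CPM against 242 ± 41.0 CPM in naive brains, it was 0.32 (adjusted p = 0.0968), and this passed without knockout 1 (adjusted p = 0.0239), which held 217 CPM.

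Ccs, the chaperone of superoxide dismutase 1, was at 10.03 ± 4.02 CPM in demyelination brains, against 8.19 ± 2.27 CPM in naive brains (log2 fold change 0.31, interval −0.21 to 0.82, adjusted p = 0.668). Its highest group was control remyelination, at 11.1 ± 2.94 CPM (0.46 against naive brain, interval −0.04 to 0.97, adjusted p = 0.530). In knockout brains Ccs averaged 9.56 ± 2.22 CPM (log2 fold change −0.21 against control remyelination brains, interval −0.71 to 0.28, adjusted p = 0.879). Ccs had between 10 and 43 counts per library, and a change of the size of that in Mt1 lies inside these intervals.

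Slc31a1, the high-affinity copper importer gene, showed no called difference. It averaged 13.1 ± 2.58 CPM in demyelination brains, against 10.9 ± 2.31 CPM in naive brains (log2 fold change 0.25, interval −0.23 to 0.73, adjusted p = 0.719). Control remyelination brains had 11.01 ± 3.31 CPM, a fold change of 0.01 on the log2 scale against naive brains (interval −0.47 to 0.50). Knockout brains averaged 12.2 ± 4.80 CPM and spanned 4.23 to 19.1 CPM, the low end being knockout 1. Atp7a averaged 16.7 ± 3.502 CPM in demyelination brains and 14.8 ± 5.09 CPM in naive brains (log2 fold change 0.16, interval −0.30 to 0.62, adjusted p = 0.824). For import and export genes alike, the intervals at demyelination hold 0 and reach above the estimate for Mt1.

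**Figure D4:**
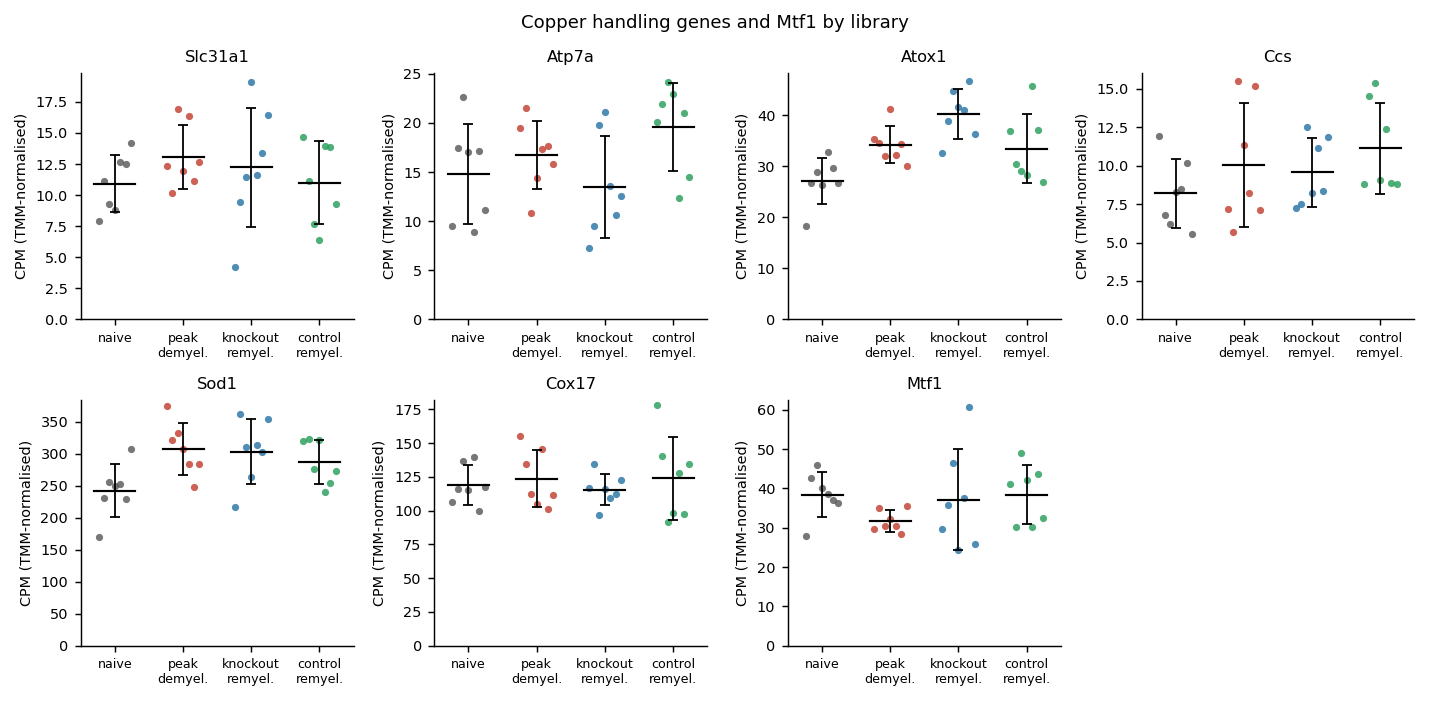
Level of the 6 copper handling genes and Mtf1 in each library (points, TMM-normalised CPM, each panel on its own linear axis from 0), with group means (long bars) and 1 SD (whiskers). Atox1 in knockout brains, at 32.6 to 46.9 CPM, lies above all but the highest naive library; Cox17 has similar means in all 4 groups, from 115 to 124 CPM.

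Cox17, which delivers copper towards cytochrome c oxidase, had the most even group means. They were 124 ± 21.3 CPM in demyelination and 124 ± 30.8 CPM in control remyelination brains, against 119 ± 14.7 CPM in naive brains. The log2 fold change at demyelination was 0.06 (interval −0.19 to 0.31, adjusted p = 0.890), which leaves out a rise of the size of that in Mt1. Within groups it was less even: demyelination libraries 1, 2 and 5 had 155, 135 and 146 CPM, and the other 4 between 102 and 112. These are the 3 libraries in which Mt1 and Mt2 were lowest and the mitochondrial share highest. Knockout brains averaged 115 ± 11.6 CPM (log2 fold change −0.11 against control remyelination brains, adjusted p = 0.878).

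Mtf1 (ENSMUSG00000028890.14), the transcription factor gene, was lower in value at demyelination, without passing. It ranged from 28.3 to 35.6 CPM in demyelination brains (median 30.6), against 27.8 to 45.9 CPM in naive brains (median 38.5). The difference was −0.28 on the log2 scale (SE 0.162, interval −0.61 to 0.05, adjusted p = 0.484). Control remyelination brains had 38.4 ± 7.45 CPM, close to the 38.4 ± 5.70 CPM of naive brains (log2 fold change −0.02). In knockout brains Mtf1 averaged 37.2 ± 12.9 CPM and ranged from 24.2 to 60.8 CPM (log2 fold change −0.04 against control remyelination brains, adjusted p = 0.966). Its estimated counts were not whole in any of the 28 libraries, while those of the other 9 members were whole in all 28, so reads of Mtf1 were divided with another feature and its level is uncertain.

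For Mt2 and Mt1 the order of the group means was demyelination, knockout, control remyelination and naive. In both genes the libraries of each group overlapped those of the next in this order. Of these neighbours that were tested, only control remyelination against naive brains in Mt2 was called. Knockout and demyelination brains were not tested against each other.

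Related genes of copper and zinc handling were read from lists of the pathway. At demyelination 1 of 10 other copper transport and homeostasis genes tested was called, lower, and 2 had an unadjusted p under 0.05. It was Xiap, whose product binds copper and marks the copper regulator COMMD1 for degradation, at 116 ± 13.8 CPM in demyelination and 152 ± 19.3 CPM in naive brains (log2 fold change −0.39, adjusted p = 0.0474). This call was fragile: it ended with library totals in place of TMM (adjusted p = 0.161), with no filter (0.0745), without the most abundant gene (0.0503) and without any of demyelination 2, 3, 4, 6 or 7 or naive 2, 3, 5 or 7 (up to 0.145). DESeq2 called 2 genes of this list.

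Of copper enzymes 0 of 6 tested were called at demyelination by edgeR (1 at an unadjusted p under 0.05, DESeq2 called 0). Of genes that carry copper to cytochrome c oxidase 0 of 13 were called (0 unadjusted, DESeq2 called 0), and of zinc transporters 0 of 19 (2 unadjusted, DESeq2 called 0). Their median log2 fold changes were −0.19, 0.07 and −0.02. In remyelination against naive brain these 3 lists again held 0 called genes (1, 0 and 1 with an unadjusted p under 0.05, DESeq2 called 0 in each of the genes it gave an adjusted p), as did the transport list (2 unadjusted, DESeq2 called 0). In knockout against control remyelination brains the 4 lists held 0 called genes (0, 1, 0 and 0 unadjusted in transport, enzymes, cytochrome oxidase and zinc, DESeq2 called 0 in each).

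Among 13 genes that remove superoxide and peroxide, Prdx6 was called. This peroxiredoxin gene, abundant in astrocytes, had 174 ± 13.1 CPM in demyelination brains and 125 ± 8.14 CPM in naive brains (log2 fold change 0.48, SE 0.0928, adjusted p = 0.00104). No library overlapped, with a lowest value of 153 CPM in demyelination and a highest of 134 CPM in naive brains. It was 0.45 higher in control remyelination brains (adjusted p = 0.00459) and 0.56 higher in knockout brains (adjusted p = 0.000195), both against naive brain. The list as a whole had a median of 0.09 at demyelination, and 12 of its 13 genes did not pass.

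Markers of cells moved at demyelination beside the metallothioneins. Of 10 mature oligodendrocyte markers all 10 fell, and their summed level was 2619 to 3726 CPM in demyelination, against 6355 to 7349 CPM in naive libraries. Of 10 microglia markers 7 rose, and the sum was 364 to 526 CPM in demyelination, against 182 to 244 CPM in naive libraries. Of 12 astrocyte markers only Gfap, an intermediate filament gene of reactive astrocytes, was called, at 43.7 ± 13.0 CPM in demyelination and 12.4 ± 3.53 CPM in naive brains (log2 fold change 1.82, adjusted p = 9.03e-09). The summed astrocyte level was 4202 to 4936 CPM in demyelination, against 4105 to 4748 CPM in naive libraries. This sum follows mainly its abundant genes, as Slc1a2 alone averaged 2160 CPM in naive brains. No listed marker of these 3 types was at 0 over the series. Markers also differed from naive brain at the later stage. In control remyelination brains 5 of 10 microglia markers were called higher, with a sum of 319 to 400 CPM. Of the 12 astrocyte markers only Gfap was called there, 1.33 higher on the log2 scale (adjusted p = 4.14e-05). The median log2 fold change of the 12 was 0.04. In knockout brains 5 of 10 microglia markers were called higher and 1 lower, with a sum of 291 to 384 CPM. Of the 12 astrocyte markers again only Gfap was called, 1.59 higher (adjusted p = 1.42e-06), and their median was 0.08. P2ry12, of the microglia list, ranged from 7.25 to 14.9 CPM in knockout and from 14.1 to 32.6 CPM in naive brains. The same list holds Cx3cr1, whose locus drives Cre in the knockout mice. Cx3cr1 averaged 26.1 CPM in knockout, 48.9 CPM in control remyelination and 30.7 CPM in naive brains. Its range of 10.4 to 44.3 CPM in knockout brains spanned the 25.4 to 42.8 CPM of naive brains. The part of the Cre allele in this was not tested. The part of cell numbers in the rise of Mt1 and Mt2 was not tested.

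**Figure D5:**
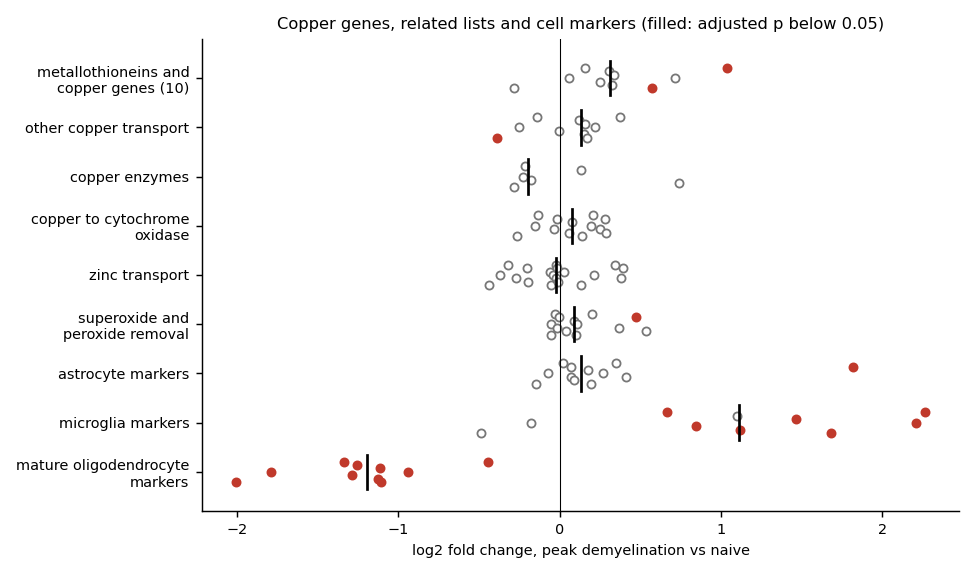
Log2 fold change of peak demyelination against naive brain for the 10 genes described, 5 lists of related genes and 3 lists of cell markers; each point is a gene, filled red where the adjusted p is below 0.05, and the vertical bar is the list's median. Mt2 at 1.04 and Mt1 at 0.57 are the filled points among the 10 genes, Xiap at −0.39 and Prdx6 at 0.48 those of the related lists, and all 10 mature oligodendrocyte markers lie left of 0.

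Genes that respond to glucocorticoids, which also induce metallothioneins, moved in both directions. Of 8 tested at demyelination, 2 rose and 1 fell. Cdkn1a had 49.1 ± 10.7 CPM in demyelination and 28.4 ± 7.43 CPM in naive brains (log2 fold change 0.77, adjusted p = 0.0141). Zbtb16 had 20.1 ± 4.64 CPM in demyelination and 9.60 ± 2.81 CPM in naive brains (log2 fold change 1.05, adjusted p = 0.0141), while Ddit4 had 31.9 ± 7.06 CPM in demyelination and 47.2 ± 5.99 CPM in naive brains (−0.57, adjusted p = 0.0155). In control remyelination brains 1 rose and 2 fell against naive brain. The summed level of this list was 265 to 371 CPM in demyelination, against 230.0 to 321 CPM in naive libraries. It was 224 to 285 CPM in control remyelination and 246 to 318 CPM in knockout libraries. Its part in the metallothionein result was not tested.

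The genes whose levels followed Mt2 most closely over the 28 libraries were found by the root mean square difference of log2 CPM, each gene centred on its own mean. The 5 nearest were Apoe at 0.218, Dhrs1 at 0.228, Mt1 at 0.237, Csf1r at 0.260 and Ctsb at 0.268, where a gene with no change at all would stand at 0.431. For Mt1 they included Ddb1 at 0.169, Clu at 0.169, Psap at 0.188 and Eif3f at 0.194, against 0.308 for a flat gene, and Mt2 was the 90th nearest. This measure favours abundant genes, whose counting error is small. Apoe, which encodes the main lipid carrier of brain, averaged 2473 CPM in demyelination, 2374 CPM in knockout and 2094 CPM in control remyelination brains, against 1205 CPM in naive brains.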

How the data were processed

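Per the file headers, the tables are RSEM output per gene, 1 table per library. Of their columns the expected counts were used, estimates of reads per gene that the authors deposited without normalisation. The TPM and FPKM columns, which the authors deposited beside them, were not used. Per the submitters' processing notes, the build was GRCm39 and the tools included STAR, RSEM, cutadapt, FastQC and edgeR; what each did, its version and whether counting used strand is not given in the sources used here. Per the labels' protocols, libraries were made with the QuantSeq FWD kit from TRIzol RNA. Between 96.6 and 97.7% of values per library were whole within 0.005, and all were rounded.

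Symbols were matched by Ensembl identifier to GENCODE M21 on GRCm38 (52081 of 55414 genes), so no coordinates of the tables are given. Genes without a symbol held 10.76% of counts. Counts were filtered with filterByExpr, TMM-normalised and fitted with edgeR 4.0.16 (R 4.3.3, limma 3.58.1) with 1 mean per group over all 28 libraries. The common biological coefficient of variation was 19.5%. There were 10 alternative settings, DESeq2 1.42.0 among them, besides the removal of each library in turn. Ratios were tested by exact permutation (scipy 1.17.1). The steps were tested on simulated data. Libraries of a group differed by at least 2.60 in chi-square per degree of freedom, so none was counted as a duplicate. Floors cover counting error only, and confidence intervals the spread between these samples.

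The 10 genes and the lists were chosen with earlier results of these data known. All 10 are named in every group; of the related gene lists, the called genes with the smallest p are named, up to 4 per list. Cell and hormone markers are counted by list. Those named (Gfap, P2ry12, Cdkn1a, Zbtb16, Ddit4 and the haemoglobin genes) were chosen after their values were seen. For Mt1 and Mt2 the 5 nearest genes are named, except 1 for Mt1 that is not reported here.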

Additional observations from a re-analysis of the deposited data

How the results depend on the processing

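The calls of Mt2 and Mt1 at demyelination, of Mt2 in control remyelination and of Mt2, Mt1 and Atox1 in knockout brains, each against naive brain, kept their direction and passed under all 24 alternatives of each. In remyelination against naive brain the members called numbered 1, and 2 with DESeq2 or the mitochondrial share in the fit, and 1 to 2 with a library left out. All genes called there were 78, and 122 with no filter, 147 with the replicate block, 146 with the mitochondrial share, 147 with DESeq2 and 58 to 154 with a library left out, the highest without remyelination 1. In knockout against control remyelination brains they were 6, and 28 with no filter and 11 with DESeq2. In knockout against naive brains they were 403, and 243 with library totals, 608 with the replicate block, 188 with the mitochondrial share, 644 without knockout 1 and naive 1 together, and 147 to 738 with a library left out (738 without knockout 1, 233, 218 and 147 without knockout 3, 6 and 7, and 205, 257 and 193 without naive 2, 3 and 5). Library totals also moved the split of higher to lower calls, which was 192 to 59 at demyelination against 162 to 87 with TMM, and 138 to 105 in knockout against naive brains where it was 191 to 212 with TMM. The share of all genes called there, set beside the 3 members, moves with these. The cause was not tested.

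The log2 difference of the Mt2 to Mt1 ratio ran from 0.41 to 0.51 at demyelination, from 0.20 to 0.32 in remyelination against naive brain and from −0.28 to −0.15 in remyelination against demyelination with a library left out. Same-numbered libraries did not deviate together (correlation over 0.1 in 5 of 42 pairs, median 0.03, best match with its own number in 10 of 42), so the numbers are not taken to pair samples. With the replicate block Mt3 at demyelination had an adjusted p of 0.0366, and the ratio of Mt2 to Mt1 at demyelination, still 0.48, had an adjusted p of 0.0781 in a sign-flip test over 7 pairs, whose few arrangements limit p. Depth was not varied. Ccs, with 573 counts over all libraries, had the fewest of the 10 genes.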

Other observations

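Of the glucocorticoid-responsive genes 1 of 8 was called in knockout against control remyelination brains, where 0.0483% of all genes were called. Ddit4 averaged 41.8 ± 6.08 CPM in knockout brains and 25.4 ± 3.44 CPM in control remyelination brains (n = 7 libraries each, log2 fold change 0.71, edgeR adjusted p = 0.0257). It ranged from 34.6 to 50.7 CPM in knockout and from 22.3 to 32.4 CPM in control remyelination brains. Naive brains, whose mean is given above, had a higher mean than either group. This gene was chosen after its values were seen.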
